A study of Mus musculus with 8 samples.

Results

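A set of 10 genes of the amino acid stress response was followed through mouse embryonic stem cell lines that differed at Gtf2i or at Hprt. They were Atf4, Atf3, Ddit3, Trib3, Nupr1, Chac1, Sesn2, Asns, Psat1 and Slc7a11, and they were found as the 19 probe sets whose annotation gave exactly that symbol, out of 18193 genes with a probe set of their own. The genes were picked by name at a time when large differences of Chac1, Trib3 and Ddit3 between these lines were already known. Their differences are therefore given as a description, with standard errors and without p-values. RNA samples were hybridised to 8 Affymetrix arrays, and values are log2 intensities normalised by the authors with RMA, so that 1 unit is a 2-fold difference. The level of a probe set is not comparable with that of another, and only differences of the same probe set between groups are read.

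The arrays fell into 4 groups of 2. In the exon 2 mutant an allele of Gtf2i lacked exon 2 (Δexon2/+), made by gene targeting in R1 cells. The trap line carried a gene-trap insertion in Gtf2i, was derived from AB2.2 cells, and had the genotype HPRT -/-:GTF2I +/-. The Hprt knockout (HPRT -/-) carried no Gtf2i mutation in its label and shares its Hprt genotype with the trap line. The wild-type cells were labelled only as wild-type, without the name of a line. Each mutant is a line of its own. The arrays of the exon 2 mutant were registered in the repository separately from the rest, and batches are not named in the labels, so batch, clone, line and genotype cannot be told apart. Gtf2i encodes the transcription factor TFII-I, and Hprt a purine salvage enzyme. Per the culture protocol all cells grew on feeder cells in serum replacement with leukaemia inhibitory factor, β-mercaptoethanol and a supplement of amino acids. Arrays of a group are labelled as biological replicates, but separate cultures are not mentioned, so all errors and p-values reflect the spread of these arrays alone.

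In the amino acid stress response, uncharged transfer RNA or other stress activates kinases that phosphorylate the initiation factor eIF2. General translation then slows while the transcription factor ATF4 is made in larger amounts. ATF4, often paired with a C/EBP protein, binds composite elements in genes for amino acid synthesis and transport, for aminoacyl-tRNA synthetases, and for further regulators such as CHOP (Ddit3) and TRIB3. Much of the control of Atf4 lies in translation, which arrays do not measure.

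Hprt was at 10.76 and 10.72 in the trap line and 10.05 and 10.02 in the Hprt knockout, below 12.25 and 12.25 in the exon 2 mutant and 12.09 and 12.08 in wild-type. Gtf2i was at 10.45 and 10.51 in the exon 2 mutant and 10.11 and 10.06 in the trap line, against 10.92 and 10.89 in the Hprt knockout and 10.10 and 10.14 in wild-type. Where these probes lie relative to the deletion and the insertion was not analysed here. All 12 stem cell markers examined, among them Pou5f1, Nanog and Sox2, lay above the filter level of about log2 5.35 on every array. Fibroblast markers set the Hprt knockout apart. The summed linear intensity of 21 of them was 109926 to 110880 in the exon 2 mutant, 129244 to 130122 in the trap line, only 6066 to 6116 in the Hprt knockout, and 148595 to 149352 in wild-type. Of these, Lum, Fap and Vcam1 did not reach the filter level on the Hprt knockout arrays, and reached it on all others. Which cells gave this signal was not examined. In these bulk samples fewer such cells and less of this RNA per cell cannot be told apart. Arrays of a group correlated at 0.997 to 0.998 over 13819 tested genes, and the Hprt knockout correlated with wild-type at 0.866.

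The sequence before the annotated start was examined for the composite element, because its core is the common feature through which several of the 10 genes are known to respond. The letters searched were TGATGNAA, on either strand (TTNCATCA on the other), in the 250 bases before the start, from RefSeq on GRCm38.p6. All 10 genes had such a window, Psat1 in 2 versions. Chac1, Atf3, Asns, Nupr1 and Slc7a11 held a match, 5 of 10 genes, while 3.45% of 32851 windows of all genes did. Trib3 had its only match after the start, at position 15, and Atf4, Ddit3, Psat1 and Sesn2 had none in the stretch searched. A match of these letters describes the sequence and does not show a bound site. The matching stretches are shown 5′ to 3′ in the direction of the gene, with the match in capitals, the whole 250 bases for Chac1 and the part around the match for the others.
Chac1 (chr2:119350992-119351241, + strand): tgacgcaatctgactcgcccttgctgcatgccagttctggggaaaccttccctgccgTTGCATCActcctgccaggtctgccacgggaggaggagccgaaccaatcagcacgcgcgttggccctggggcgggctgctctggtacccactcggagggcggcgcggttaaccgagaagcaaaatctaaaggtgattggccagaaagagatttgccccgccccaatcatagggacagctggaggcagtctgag
Atf3 (chr1:191183396-191183483, - strand): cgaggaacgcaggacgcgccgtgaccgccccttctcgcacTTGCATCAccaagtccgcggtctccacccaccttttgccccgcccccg
Asns (chr6:7693210-7693272, - strand): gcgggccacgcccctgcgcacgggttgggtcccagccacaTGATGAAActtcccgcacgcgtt
Nupr1 (chr7:126625533-126625620, - strand): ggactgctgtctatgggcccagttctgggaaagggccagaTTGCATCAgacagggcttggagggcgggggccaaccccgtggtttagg
Slc7a11 (chr3:50443614-50443719, - strand): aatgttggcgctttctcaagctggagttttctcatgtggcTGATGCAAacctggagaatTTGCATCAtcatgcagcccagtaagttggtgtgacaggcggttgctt
In Slc7a11 the letters occurred in both orientations, first at -66 and then at -47 from the start. In Asns they began at -23, in Chac1 at -193, and in Atf3 and Nupr1 at -110. Genes with the match did not share a pattern of levels, since they included Chac1, Nupr1 and Slc7a11, whose values are described next.

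**Figure D1:**
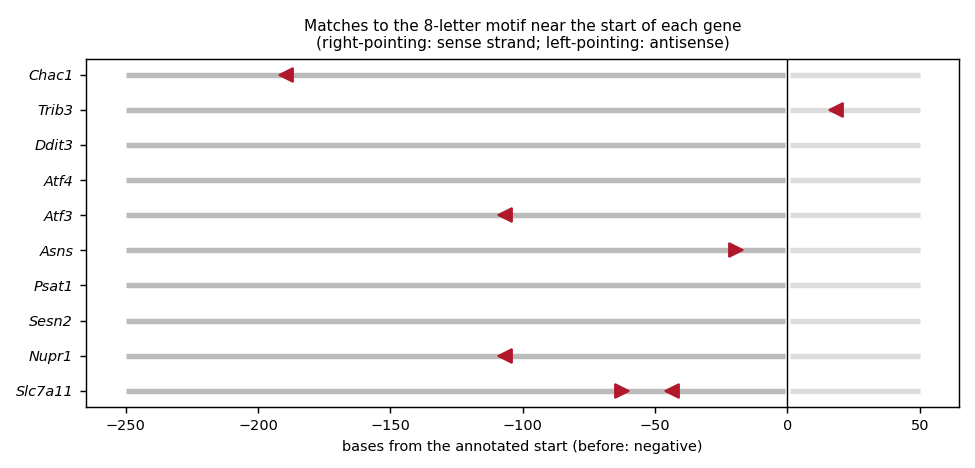
Positions of matches to TGATGNAA (right-pointing, sense strand; left-pointing, antisense strand) for the 10 genes, in bases from the annotated start; the darker bar is the 250 bases before it and the lighter bar the 50 bases after it. Chac1, Atf3, Asns and Nupr1 hold 1 match each before the start and Slc7a11 holds 2, and the match of Trib3 lies after the start; neither of the 2 windows of Psat1 holds any.

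Of the 10 genes, 9 lay above the filter level on all 8 arrays, and Slc7a11 did on none. Of the 9, 8 were called higher in the exon 2 mutant than in wild-type (background: 32.5% of all genes tested). In the trap line 8 were lower than in the Hprt knockout (41.8%). In the Hprt knockout 7 were higher than in wild-type (46.4%). The gene that ran the other way was Nupr1 in each of these comparisons. Asns did not pass in the last of them (0.05). For Chac1, and for Sesn2 on its brightest probe set, the trap line overlapped with wild-type.

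**Figure D2:**
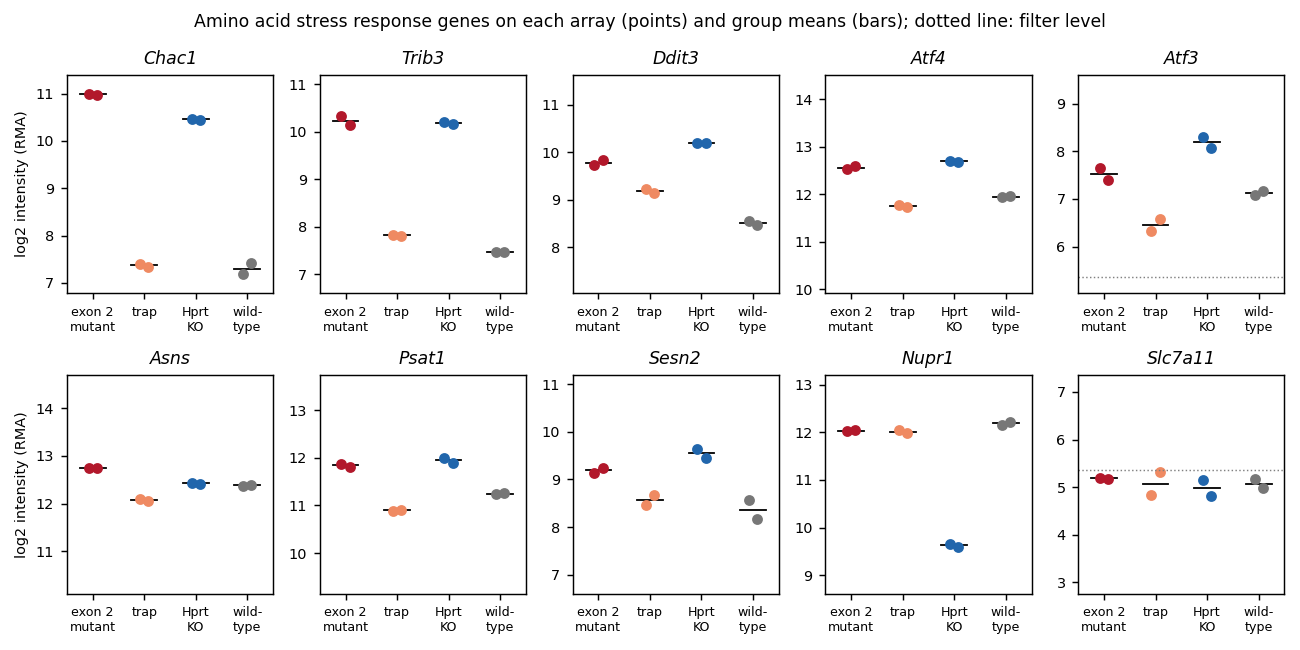
log2 intensity of the 10 genes on each array (points) with group means (bars), each panel on its own vertical range; the dotted line is the filter level of 5.35. Chac1 and Trib3 fall into a high pair of groups (exon 2 mutant and Hprt knockout) and a low pair (trap and wild-type), Nupr1 is low in the Hprt knockout, and Slc7a11 stays below the filter level.

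Atf4 encodes the transcription factor at the centre of the pathway. Its brightest probe set read 12.53 and 12.59 in the exon 2 mutant, 11.77 and 11.73 in the trap line, 12.70 and 12.68 in the Hprt knockout, and 11.94 and 11.96 in wild-type. No groups overlapped on this probe set, and the order ran from the Hprt knockout through the exon 2 mutant and wild-type to the trap line. The exon 2 mutant against the Hprt knockout, at -0.13, did not pass, and was at -0.03 under cyclic loess. It passed under the stricter filter and with probe sets averaged (-0.21). On the second probe set these groups overlapped. Atf4 lay 0.61 ± 0.05 (SE) above wild-type in the exon 2 mutant, and the trap line 0.94 ± 0.05 below the Hprt knockout. The Hprt knockout lay 0.75 ± 0.05 above wild-type, where the median of all genes was 0.16. The second probe set gave 0.42 ± 0.13 for exon 2 mutant against wild-type and -0.97 ± 0.13 for trap against Hprt knockout, and the third probe set was below the filter level. With all of them averaged the exon 2 mutant lay 0.36 above wild-type.

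Atf3 and Ddit3 are transcription factor genes induced downstream of ATF4. Ddit3, whose product CHOP promotes cell death under lasting stress, read 9.72 and 9.84 in the exon 2 mutant, 9.22 and 9.14 in the trap line, 10.19 and 10.19 in the Hprt knockout, and 8.55 and 8.47 in wild-type. The 4 groups were separate, with the Hprt knockout highest and wild-type lowest. Among the members Ddit3 stood furthest above wild-type in the trap line, by 0.67 ± 0.06, beside 1.27 ± 0.06 in the exon 2 mutant and 1.68 ± 0.06 in the Hprt knockout. Its dimmer probe set had the same order, at 0.35, 0.86 and 1.40. Atf3, a stress-induced repressor, read 7.64 and 7.39 in the exon 2 mutant, 6.33 and 6.58 in the trap line, 8.30 and 8.08 in the Hprt knockout, and 7.09 and 7.17 in wild-type. The trap line was lowest here, 1.74 ± 0.12 below the Hprt knockout and 0.68 ± 0.12 below wild-type. Against wild-type the exon 2 mutant lay higher by 0.39 ± 0.12, a difference that was no longer past the threshold when exon 2 mutant replicate 1 (0.26) or either wild-type array was left out (0.35 without replicate 1, 0.43 without replicate 2), or under cyclic loess (0.32).

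Trib3 encodes a pseudokinase that binds ATF4 and CHOP and restrains AKT. It read 10.33 and 10.13 in the exon 2 mutant, 7.83 and 7.81 in the trap line, 10.21 and 10.16 in the Hprt knockout, and 7.48 and 7.47 in wild-type. The exon 2 mutant and the Hprt knockout overlapped, and both lay far above the other lines. The difference from wild-type was 6.75-fold in the exon 2 mutant and 6.53-fold in the Hprt knockout, and the trap line lay 5.15-fold below the Hprt knockout. Its second probe set gave log2 differences of 2.39 ± 0.09, 2.27 ± 0.09 and -1.95 ± 0.09 for these comparisons.

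Chac1 encodes an enzyme that breaks down glutathione and is induced through ATF4, ATF3 and CHOP. It read 11.00 and 10.96 in the exon 2 mutant, 7.40 and 7.34 in the trap line, 10.47 and 10.45 in the Hprt knockout, and 7.18 and 7.42 in wild-type. The trap line and wild-type overlapped, and the exon 2 mutant lay above the Hprt knockout by 0.53 ± 0.08 without overlap. Against wild-type Chac1 was 12.8-fold higher in the exon 2 mutant and 8.92-fold higher in the Hprt knockout. Its trap level was 8.51-fold lower than that of the Hprt knockout. Chac1 was high in the exon 2 mutant, where the summed linear intensity of the fibroblast markers was 109926 to 110880. It was also high in the Hprt knockout, where that sum was 6066 to 6116 and 18 of 21 markers were above the filter level. In the trap line (129244 to 130122) and wild-type (148595 to 149352) Chac1 was low. The part of fibroblast content in the Chac1 differences was not tested.

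Asns and Psat1 are genes of amino acid synthesis. Asns encodes asparagine synthetase. It read 12.74 and 12.75 in the exon 2 mutant, 12.09 and 12.06 in the trap line, 12.44 and 12.42 in the Hprt knockout, and 12.37 and 12.39 in wild-type. Asns was 0.37 ± 0.05 above wild-type in the exon 2 mutant and in the trap line 0.31 ± 0.05 below it, whereas the Hprt knockout differed from wild-type by 0.05 ± 0.05. Under cyclic loess that value became -0.13 and was past the threshold, so the Hprt knockout was then the lower. The median of all genes was 0.16 before. The second probe set gave 0.38, -0.33 and 0.07 for the same comparisons. Psat1, an enzyme of serine synthesis, read 11.88 and 11.81 in the exon 2 mutant, 10.89 and 10.90 in the trap line, 12.00 and 11.89 in the Hprt knockout, and 11.24 and 11.26 in wild-type. The Hprt knockout mean was 0.10 above that of the exon 2 mutant, a gap smaller than the range of 0.12 between the Hprt knockout arrays. Psat1 was 0.60 ± 0.06 above wild-type in the exon 2 mutant, while the trap line lay 1.05 ± 0.06 below the Hprt knockout.

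Sesn2 encodes sestrin 2, a leucine-binding inhibitor of mTORC1. It read 9.14 and 9.25 in the exon 2 mutant, 8.47 and 8.67 in the trap line, 9.64 and 9.46 in the Hprt knockout, and 8.56 and 8.16 in wild-type. The trap line and wild-type overlapped, and the exon 2 mutant and the Hprt knockout were above both. Its probe sets differed in size for the trap line against the Hprt knockout, at -0.99 ± 0.14 and -0.45 ± 0.07, while for the exon 2 mutant against wild-type they gave 0.84 and 0.87. On the dimmer probe set the trap line (8.80 and 8.67) did not overlap with wild-type (8.41 and 8.39) and lay 0.34 ± 0.07 above it. With the probe sets averaged this difference was 0.28 and past the threshold.

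Nupr1, a small stress-induced chromatin protein gene, stood apart. It read 12.02 and 12.04 in the exon 2 mutant, 12.04 and 11.99 in the trap line, 9.65 and 9.60 in the Hprt knockout, and 12.16 and 12.22 in wild-type. It was 5.25-fold higher in the trap line than on the Hprt knockout arrays, which in turn lay 5.91-fold lower than wild-type. Both of its probe sets gave this, the second at 2.25 ± 0.07 and -2.51 ± 0.07 on the log2 scale. The median difference of the 21 fibroblast markers in the same comparisons was 4.50 and -4.70, and their part in the Nupr1 difference was not tested. In the exon 2 mutant Nupr1 was 0.16 ± 0.05 below wild-type, and the fibroblast markers had a median of -0.54 there. This small difference and that of 0.17 between the trap line and wild-type lost their calls in 11 and 9 of 14 alternative settings.

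**Figure D3:**
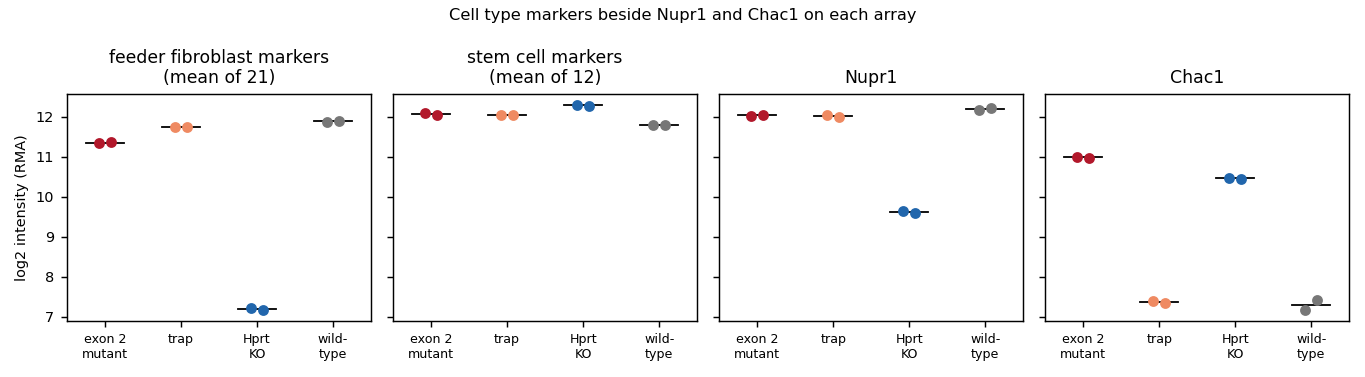
log2 intensity on each array (points) with group means (bars) for the mean of 21 fibroblast markers, the mean of 12 stem cell markers, Nupr1 and Chac1. The fibroblast mean is 7.16 to 7.22 in the Hprt knockout and 11.34 or more elsewhere; Nupr1 is lowest in the same group, and Chac1 is not.

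Slc7a11 encodes the cystine carrier of the glutathione pathway. Its brighter probe set read 5.20 and 5.18 in the exon 2 mutant, 4.83 and 5.31 in the trap line, 5.14 and 4.81 in the Hprt knockout, and 5.17 and 4.98 in wild-type. These values lie at the level of the dimmest 40% of all probe sets, so a difference of this gene was not detectable here, and its other probe set was dimmer still. It was left out of the fit and of all counts.

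A first comparison set the exon 2 mutant against wild-type to see how these genes stand when exon 2 of Gtf2i is missing on an allele. Past an adjusted p of 0.05 by limma, 8 of the 9 tested members were higher, where 32.5% of all genes were, and 1 was lower, where 23.1% were. The median difference was 0.61 over the members and 0.03 over all genes. In the trap line against the Hprt knockout, which have the Hprt genotype in common, 8 of 9 members were lower (41.8% of all genes) and 1 was higher (26.6%), with a median of -1.01 against -0.13 over all genes. These comparisons have no array in common. In the Hprt knockout against wild-type 7 of 9 were higher (46.4% of all genes) and 1 lower (25.1%), with a median of 1.06 against 0.16. In the trap line against wild-type Trib3 and Ddit3 were higher (26.5% of all genes) and Atf4, Atf3, Asns, Psat1 and Nupr1 lower (14.6%), with a median of -0.17 against 0.05. Chac1, Asns and Nupr1 were higher in the exon 2 mutant than in the Hprt knockout (24.9% of all genes), and Ddit3 and Atf3 were lower (36.3%). Since the members were chosen with such differences known, nothing is read from these shares. The comparisons with wild-type use the same wild-type arrays, and those with the Hprt knockout the same Hprt knockout arrays.

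**Figure D4:**
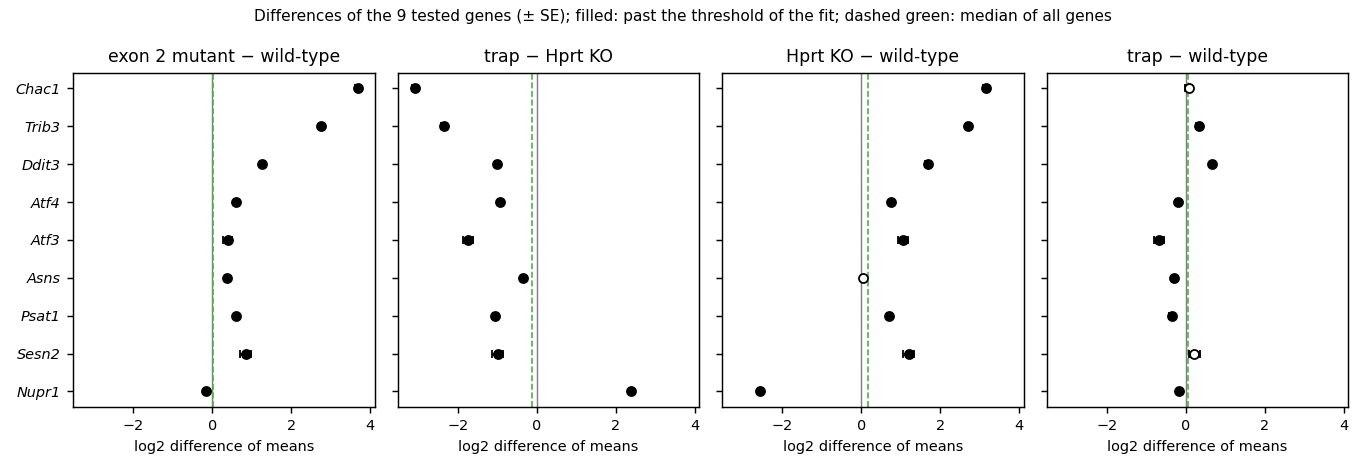
Difference of group means ± SE (log2) for the 9 tested genes in 4 comparisons, with the median of all genes as a dashed line; filled points are past the threshold of the fit over all genes. Chac1 and Trib3 lie furthest to the right for the exon 2 mutant and the Hprt knockout against wild-type, and furthest to the left for the trap line against the Hprt knockout, with Nupr1 on the opposite side.

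Beyond the 10 genes, 49 further genes of the pathway were listed by role, of which 47 had a probe set and all 47 were tested. In the exon 2 mutant against wild-type 40 rose (32.5% of all genes were called higher) and 2 fell (23.1% called lower), with a median of 0.50 (0.03 over all genes). All 8 amino acid transporters rose, such as the heavy chain Slc3a2 (0.72, adjusted p = 6.13e-05 by limma) and the alanine and serine carrier Slc1a4 (0.92). All 11 amino acid and folate enzymes rose too, led by Gpt2, a mitochondrial alanine aminotransferase (1.28 ± 0.11, adjusted p = 0.000107). Of 12 cytosolic aminoacyl-tRNA synthetases 11 rose, by 0.24 (Tars) to 0.79 (Lars), and Wars did not pass (0.02, adjusted p = 0.788). The secreted glycoprotein gene Stc2 rose by 2.43 ± 0.07 (adjusted p = 3.64e-06) and the mTORC1 inhibitor gene Ddit4 by 1.56 ± 0.06 (adjusted p = 7.40e-06). With all probe sets of Stc2 averaged its difference was 1.39. The hormone gene Fgf21 read 6.60 and 6.23 in the exon 2 mutant, against 5.42 and 5.08 in wild-type, a mean under the filter level, so its rise is counted but no size is given. Of 5 listed transcription factor genes that pair with or follow ATF4, 3 rose and 2 fell. Cebpg rose by 1.01 ± 0.06 (adjusted p = 3.21e-05), Jdp2 by 0.51 and Nfe2l2 by 0.33. Cebpb and Atf5 fell by 0.26 and 0.22. Atf5 lost its call without either wild-type array (-0.23 and -0.21) or without exon 2 mutant replicate 1 (-0.20). None of the eIF2 kinase genes Eif2ak1, Eif2ak2, Eif2ak3 and Eif2ak4 passed, with differences of -0.02 to 0.05, while Ppp1r15a and Ppp1r15b, subunits of the phosphatase that reverses them, rose by 0.49 and 0.58. Stem cell markers had a median of 0.27 and fibroblast markers of -0.54 in this comparison, and their part in these changes was not tested.

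In the trap line against the Hprt knockout 36 of the 47 fell (41.8% of all genes were called lower) and 7 rose (26.6% called higher), with a median of -0.59, against -0.13 over all genes. The falls covered all 12 synthetases, by 0.34 (Tars) to 0.98 (Cars), and all 8 transporters, with Slc3a2 at -1.01 ± 0.05. Of the enzymes, 9 of 11 fell, and Mthfd2, of the mitochondrial folate cycle, fell by 1.42 ± 0.06 (adjusted p = 1.69e-06) and Gpt2 fell by 1.35. Stc2 fell by 2.57 ± 0.07 (adjusted p = 2.15e-07; -1.41 with its probe sets averaged) and Ddit4 fell by 1.76 ± 0.06 (adjusted p = 4.49e-07). The rises were largest in Cebpb (1.62 ± 0.05, adjusted p = 3.34e-07), Eif2ak2, an interferon-induced kinase (1.18), Aldh1l2 (0.91) and Vldlr (0.77, but 0.44 with its probe sets averaged). Fibroblast markers had a median of 4.50 here, all 21 higher in the trap line.

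In the Hprt knockout against wild-type 35 of 47 rose (46.4% of all genes were called higher) and 7 fell (25.1% called lower), with a median of 0.45, against 0.16 over all genes. All 12 synthetases rose, by 0.26 (Tars) to 0.90 (Cars), as did 7 of 8 transporters, the exception being the arginine carrier Slc7a1 at -0.04 (adjusted p = 0.524). Stc2 rose by 2.17 ± 0.07 (adjusted p = 4.02e-07; 1.17 with its probe sets averaged) and Ddit4 by 1.85 ± 0.06. The transsulfuration gene Cbs rose by 1.64 ± 0.06 (adjusted p = 4.98e-07) and the aspartate aminotransferase gene Got1 by 1.30 ± 0.06. Aldh1l2 (-1.64), Cebpb (-1.48), Eif2ak2 (-1.46) and Vldlr (-0.84) fell, beside fibroblast markers at -4.70 and stem cell markers at 0.42. The fall of Vldlr shrank to -0.21 and did not pass when all its probe sets were averaged (adjusted p = 0.0858). Under cyclic loess, which brought the median of all genes from 0.16 to 0.00, 28 of the list rose and 10 fell.

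The trap line against wild-type gave 5 rises and 17 falls among the 47, and 25 that did not pass (median -0.09, against 0.05 over all genes). Of all genes 26.5% were called higher and 14.6% lower. Without trap replicate 1 or wild-type replicate 1 only 3 rises passed. Aldh18a1, which starts proline synthesis, fell by 0.86 ± 0.07 (adjusted p = 0.000139), Gpt2 by 0.75, Aldh1l2 by 0.74 and Slc7a1 by 0.72. With probe sets averaged Aldh18a1 was at -0.57 and Gpt2 at -0.22. The rises were led by Nfe2l2, the gene of the antioxidant factor NRF2 (0.78 ± 0.07, adjusted p = 0.000180, but 0.28 with adjusted p = 0.0715 when its probe sets were averaged), Got1 (0.68), Cbs (0.59) and Ppp1r15a (0.28). Ppp1r15a did not pass without trap replicate 1 (adjusted p = 0.0599) or wild-type replicate 1 (adjusted p = 0.0624). Of the synthetases only Aars and Wars passed, both lower. Set against the Hprt knockout, the exon 2 mutant gave 18 rises (24.9% of all genes were called higher) and 10 falls (36.3% called lower), with a median of 0.02, against -0.09 over all genes. Cbs fell by 1.09 ± 0.06 (adjusted p = 6.53e-06), Cth, the next enzyme of transsulfuration, fell by 0.71, Got1 fell by 0.67 and Cars fell by 0.50. With its probe sets averaged Cars was at -0.32. None of the 12 synthetases rose and 3 fell. Aldh1l2 (1.97), Vldlr (1.91, but 1.12 with its probe sets averaged), Eif2ak2 (1.51) and Cebpb (1.22) rose, and all 21 fibroblast markers were higher too.

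**Figure D5:**
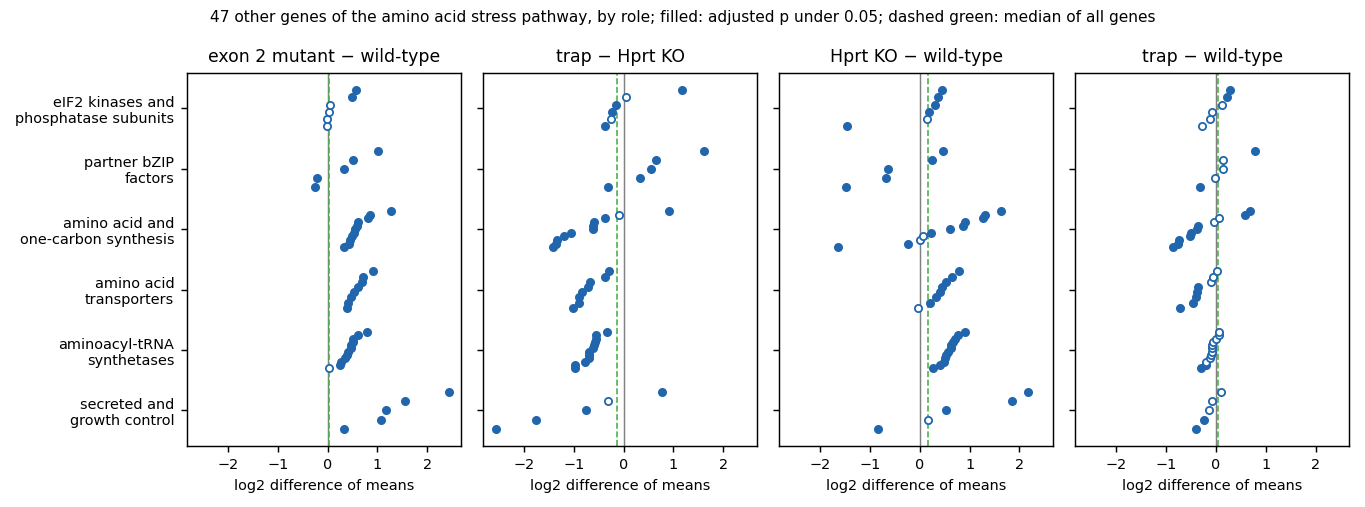
Difference of group means (log2) of 47 further genes of the pathway in 4 comparisons, grouped by role and sorted within each role; filled points have an adjusted p under 0.05 and the dashed line is the median of all genes. The synthetases and transporters lie right of 0 for the exon 2 mutant against wild-type (20 genes, 19 of them past the threshold) and left of 0 for the trap line against the Hprt knockout (20 of 20 past it).

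The exon 2 mutant against wild-type and the trap line against the Hprt knockout have no arrays in common. They can therefore be set beside each other. Of the 47 genes, 34 rose in the exon 2 mutant against wild-type and fell in the trap line against the Hprt knockout, including 8 of 8 transporters, 11 of 12 synthetases and 9 of 11 enzymes. Over all tested genes 22.9% did so. The difference between the effects was tested in the same fit, on the brightest probe set of each gene. It was 5.00 ± 0.10 for Stc2 (adjusted p = 6.58e-08 by limma), 3.32 ± 0.08 for Ddit4 (adjusted p = 1.41e-07), 2.28 for Mthfd2 and 2.64 for Gpt2. These genes were named for their large differences in the comparisons that enter this test, so nothing is read from its p-values. For Stc2 the effects compared were 2.43 and -2.57, and with its probe sets averaged 1.39 and -1.41. Stc2 read 8.99 and 8.88 in the exon 2 mutant, 6.18 and 6.04 in the trap line, 8.61 and 8.75 in the Hprt knockout, and 6.50 and 6.52 in wild-type. Its high groups were the exon 2 mutant and the Hprt knockout and its low groups the trap line and wild-type, as for Chac1 and Trib3.

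The endoplasmic reticulum chaperone genes, which respond to another arm of the stress pathway, were examined as a list of 8. In the exon 2 mutant against wild-type 2 rose, Herpud1 by 1.11 ± 0.05 (adjusted p = 1.64e-05) and Sdf2l1 by 0.33 (0.21 under cyclic loess), and 5 fell, among them the chaperone gene Hspa5 by 0.77 ± 0.06 (adjusted p = 6.74e-05) and the transcription factor gene Xbp1 by 0.89 ± 0.05. The median was -0.27, and 32.5% of all genes were called higher and 23.1% lower. In the trap line against the Hprt knockout 3 rose (26.6% of all genes were called higher) and 3 fell (41.8% called lower). Dnajb9 was at 0.76 and Herpud1 at -0.85. Herpud1, which ATF4 also induces, was thus opposite to Hspa5 in the exon 2 mutant. For the Hprt knockout against wild-type 3 of the list rose (46.4% of all genes were called higher) and 4 fell (25.1% called lower), Xbp1 by 0.55.

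The genes whose group means were most like those of Chac1 were sought among all tested genes outside the 10, by the root mean square difference of the 4 group means after each gene was centred on its own mean. They were Lefty1 (0.369 log2 units), Myb (0.427), Stc2 (0.482), Otx2 (0.482) and Ccdc160 (0.763), with Myb and Ccdc160 below the filter level in wild-type. Trib3, at 0.457, was the nearest of the members. For Asns, whose range was small, Fkbp1b (0.0195), Trmt61a (0.0277), Adat2 (0.0302), Zfp712 (0.0360) and Rbm14 (0.0416) were nearest, and the nearest member was Atf4 (0.265). Slc7a11 was not tested, so no likeness was computed for it. These values rest on 4 group means each.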

How the data were processed

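The deposited values are log2 intensities per probe set, which the authors obtained with RMA, as the submitters' processing notes state (version not given in the sources used here). RMA normalises arrays by quantiles, so a shift of most genes between groups is not visible. Of 45101 probe sets, 64 controls were left out and 34945 had exactly 1 symbol in the platform annotation, which gave 18193 genes. A gene was represented by its probe set with the highest mean, and 13819 genes were tested, those exceeding the 40th percentile of its values on 2 or more arrays. All 8 arrays entered a model with a mean per group, in limma 3.58.1 in R 4.3.3 (lmFit, eBayes; 4 residual and 6.86 moderated degrees of freedom). P-values are two-sided and Benjamini-Hochberg adjusted over all tested genes, comparison by comparison, and the threshold was 0.05. An exact test of 2 against 2 arrays cannot go below 0.333 and was not used. The number of arrays limits the precision.

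Further pathway genes were named as the 4 past the threshold with the largest difference in each direction per comparison, others as examples chosen after their values were seen. For the chaperone and glutathione lists examples were taken from the 2 largest per direction. The members, lists and rules were chosen with earlier results of these data known. The script was tested on simulated data. The tRNA synthetase symbols are those of the annotation, and Pycr1 and Gdf15 had no probe set with 1 symbol. Equal replicate numbers in the titles were checked as a pairing. Alternatives were cyclic loess, no or a stricter filter, mean of probe sets, only the compared arrays, a replicate block, and each array left out.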

Additional observations from a re-analysis of the deposited data

Results flagged for a closer look

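The exon 2 mutant against wild-type and the trap line against the Hprt knockout moved in opposite directions, on every array, for 9 of the 10 genes. The share of all genes that did so was not computed, so nothing is read from this count. For the members the difference between the effects was not tested, because they were chosen with it known. It was 6.77 on the log2 scale for Chac1, 5.12 for Trib3, 2.28 for Ddit3, 1.56 for Atf4, 2.12 for Atf3, 0.72 for Asns, 1.65 for Psat1 and 1.82 for Sesn2. For Nupr1 it was -2.55, and there the trap line was the higher of its pair, as were the fibroblast markers.

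Of the 47 further pathway genes, 36 had calls of opposite sign in these comparisons and also passed limma's test of the difference between the effects, with adjusted p-values of 6.58e-08 to 0.000986. The share of all tested genes that met these conditions was not computed, so nothing is read from this count. Nothing is read from the p-values either, since these genes already had calls of opposite sign. Without the test of the difference, 34 of the 47 rose in the exon 2 mutant and fell in the trap line, as did 22.9% of all genes. Among outputs the difference was 5.00 for Stc2, 3.32 for Ddit4 and 1.07 for Eif4ebp1. Among enzymes it was 2.64 for Gpt2, 2.28 for Mthfd2, 2.16 for Psph, 1.74 for Cth, 1.59 for Cbs, 1.25 for Got1, 1.19 for Shmt2, 1.12 for Aldh18a1 and 0.82 for Phgdh. The transporters gave 1.81 for Slc1a4, 1.74 for Slc3a2, 1.38 for Slc38a2, 1.37 for Slc7a1, 1.29 for Slc7a5, 1.14 for Slc6a9, 0.92 for Slc1a5 and 0.84 for Slc7a3. The synthetases gave 1.58 for Aars, 1.48 for Lars, 1.38 for Cars, 1.30 for Yars, 1.07 for Sars, 1.04 for Iars, 1.03 for Mars1, 0.97 for Eprs, 0.97 for Gars, 0.95 for Nars and 0.59 for Tars. Of the regulators, Cebpg was at 1.33, Ppp1r15b at 0.96 and Ppp1r15a at 0.65, whereas Cebpb was at -1.89 and Atf5 at -0.54.

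In the chaperone and glutathione lists 6 of 15 tested genes met the same conditions, with adjusted p-values of 1.09e-06 to 0.00147 by limma. The share of all genes was not computed here either, and nothing is read from the count or the p-values. The difference was 1.95 for Herpud1, 1.23 for Nqo1, 1.11 for Gsr and 0.87 for Sdf2l1, and it was -1.08 for Dnajb9 and -0.94 for Hspa5.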

How the results depend on the processing

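No total count of calls, in either direction together, over all genes, the members or the pathway list moved by more than 1.5 times under any alternative, and none of the called differences of named genes changed sign. Over all alternatives the pathway genes past the threshold numbered 40 to 42 for the exon 2 mutant against wild-type, 41 to 44 for the trap line against the Hprt knockout, 37 to 42 for the Hprt knockout against wild-type and 17 to 25 for the trap line against wild-type. Members past it numbered 7 to 9, 9, 8 to 9 and 5 to 8. In the main fit 7674, 9449, 9876 and 5673 of all 13819 tested genes passed in these comparisons, in the same order. By direction, small counts moved further. The members lower in the trap line than in wild-type, 5 with all arrays, numbered 3 on leaving out any 1 of these 4 arrays, and those lower in the exon 2 mutant than in the Hprt knockout numbered 4 under the stricter filter, against 2. The 2 pathway falls in the exon 2 mutant became 1 without either wild-type array or exon 2 mutant replicate 1. The call of Nupr1 in the exon 2 mutant against wild-type (-0.16) was lost in 11 of 14 alternatives, the replicate block among them, and that in the trap line against wild-type (-0.17) in 9. Atf4 in the trap line against wild-type (-0.20) lost its call on leaving out a trap or wild-type array (-0.22 to -0.17) and in no other alternative. Cyclic loess moved the median of all genes most in the comparisons with the Hprt knockout, to 0.01, against -0.13 before, for the trap line against the Hprt knockout and to 0.00, against 0.16, for the Hprt knockout against wild-type. It changed the share of all calls that were higher from 58.4% to 47.8% for the exon 2 mutant against wild-type, from 38.9% to 52.5% for the trap line against the Hprt knockout, from 64.9% to 49.9% for the Hprt knockout against wild-type, from 64.6% to 54.2% for the trap line against wild-type and from 40.7% to 54.6% for the exon 2 mutant against the Hprt knockout. With the replicate block, 42 pathway genes passed in the exon 2 mutant against wild-type. The deviations of same-numbered arrays from their group means correlated at -0.275 to 0.175 between groups. The main fit did not pair these arrays, and with 2 arrays a group this check cannot exclude a pairing. Probe sets below the filter level, as for Slc7a11, give no measurable difference.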

Other observations

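The targets of the antioxidant factor NRF2, among which Slc7a11 is counted, followed another pattern. All 7 tested genes of this list rose in the Hprt knockout against wild-type, where 46.4% of all genes were called higher. Nqo1 rose by 1.82 ± 0.05 (adjusted p = 1.59e-07 by limma) and Gclm, a subunit of the enzyme that starts glutathione synthesis, by 1.35 ± 0.06. In the trap line against wild-type 6 of 7 rose (26.5% of all genes called higher), Nqo1 by 0.96 and Gsr by 0.74. In the trap line against the Hprt knockout 5 fell (41.8% of all genes called lower) and none rose, Nqo1 by 0.86 and Gclm by 0.83. The exon 2 mutant against wild-type, with 32.5% of all genes called higher and 23.1% lower, gave 2 rises, Gsr by 0.74 and Nqo1 by 0.38, and 3 falls, Srxn1 by 0.54, with a median of -0.09. The lines whose labels carry the Hprt mutation were the highest in Nqo1, at means of 8.78 and 9.64, against 8.20 in the exon 2 mutant and 7.82 in wild-type. Gclc, Gclm, Hmox1 and Srxn1 were also highest in these lines. Gsr and Txnrd1 were not. Gsr was at 9.68 in both the trap line and the exon 2 mutant, and Txnrd1 was at 11.50 in the trap line, against 11.65 in wild-type.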
